A study of Mus musculus with 12 samples.

Results

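The chaperones and heat shock proteins on this array comprised 37 genes, read by 44 probes, out of 5723 genes that had a probe with a single gene symbol. They were taken by symbol: those beginning with Dnaj, with Hsp followed by a, b, d, e, h or a digit, with Cct followed by a digit, with Pdia, or with Fkbp. They fell into 15 J-domain (Dnaj) genes, 5 Hsp70 (Hspa) genes, 5 genes with Hspb symbols, 1 Hsp60 (Hspd) entry, 4 subunits of the CCT chaperonin, 5 FK506-binding proteins (Fkbp) and 2 protein disulfide isomerases (Pdia). A value on all 10 arrays used here was present for 26 of the 37, and these 26 could be tested together with all other probes. The other 11 lacked 1 or more cultures and are described separately. Not among the 37 were Hspa5, Hspa8, Hsph1, Hsp90aa1, Hsp90ab1, Hsp90b1, Hspd1, Hspe1, Hspb1, Dnaja1, Dnajb9, Pdia3, Pdia6, Cct8, Fkbp1a and Fkbp5. Results for the 37 genes do not cover those symbols.

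The study asked how interleukin-1β (IL-1β) acts on gene expression in glia with and without its type 1 receptor, IL-1R1. Primary mouse mixed glial cells, kept for 10 to 12 days after isolation, fell into 4 groups: IL-1R1-/- glia given 10 ng/ml rrIL-1β for 4 h, IL-1R1-/- glia given vehicle, wild-type glia given IL-1β and wild-type glia given vehicle. The 2 treatments were paired within a culture, and 2 IL-1R1-/- cultures and 3 wild-type cultures were used. The columns of the third IL-1R1-/- culture were left out as rescaled copies. They matched the vehicle columns of the first wild-type and the first IL-1R1-/- culture, which were kept. Radiolabelled cDNA was hybridised to arrays of 8734 probes, and each value below is a log2 spot intensity after quantile normalization, a scale on which a difference of 1 is 2-fold.

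Chaperones bind unfolded or partly folded proteins and keep them from aggregating. Hsp70 proteins do so in cycles of ATP hydrolysis that J-domain proteins start and nucleotide exchange factors end, the CCT ring folds actin and tubulin, small heat shock proteins (Hspb) hold unfolded proteins without ATP, and the protein disulfide isomerases and many FK506-binding proteins work on secretory proteins in the endoplasmic reticulum (ER). Cytosolic stress induces many of these genes through heat shock factor 1, which binds heat shock elements, and ER stress induces others through the unfolded protein response. In astrocytes and microglia, the main cells of mixed glial cultures, IL-1β is best known for inducing cytokines, chemokines and acute phase proteins through NF-kB.

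Promoters of 4 of these genes are printed because they carry the elements named above and belong to genes described below: Hspb8, which gave the smallest p-value of the 26 genes in wild-type glia, Dnaja4 and Dnajb6, which had unadjusted p-values under 0.05 in other comparisons, and Dnajc3, the sole member with an ER stress element. Each runs 5′ to 3′ from 250 bases before the start of transcription to 20 bases after it (RefSeq, GRCm38.p6). Capitals mark a heat shock element, searched as GAANNTTC, in Hspb8 (chr5:116422845-116423114, minus strand), Dnaja4 (chr9:54699309-54699578, plus strand) and Dnajb6 (chr5:29735648-29735917, plus strand), and the ER stress response element of the unfolded protein response in Dnajc3 (chr14:118937682-118937951, plus strand).
Hspb8: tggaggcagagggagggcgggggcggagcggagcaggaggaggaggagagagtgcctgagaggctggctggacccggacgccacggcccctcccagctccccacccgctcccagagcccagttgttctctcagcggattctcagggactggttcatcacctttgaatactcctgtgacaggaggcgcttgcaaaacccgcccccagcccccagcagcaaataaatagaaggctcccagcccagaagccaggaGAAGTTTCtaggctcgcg
Dnaja4: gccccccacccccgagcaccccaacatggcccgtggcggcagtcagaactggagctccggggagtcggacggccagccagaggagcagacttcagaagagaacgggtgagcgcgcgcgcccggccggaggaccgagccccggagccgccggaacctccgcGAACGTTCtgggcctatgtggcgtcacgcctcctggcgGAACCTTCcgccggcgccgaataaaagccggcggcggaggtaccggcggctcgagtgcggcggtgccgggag
Dnajb6: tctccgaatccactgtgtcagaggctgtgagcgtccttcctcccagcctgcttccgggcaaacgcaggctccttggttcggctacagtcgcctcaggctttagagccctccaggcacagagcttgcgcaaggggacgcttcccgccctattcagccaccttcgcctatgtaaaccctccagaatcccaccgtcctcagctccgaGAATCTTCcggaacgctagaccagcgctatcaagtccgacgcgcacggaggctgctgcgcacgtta
Dnajc3: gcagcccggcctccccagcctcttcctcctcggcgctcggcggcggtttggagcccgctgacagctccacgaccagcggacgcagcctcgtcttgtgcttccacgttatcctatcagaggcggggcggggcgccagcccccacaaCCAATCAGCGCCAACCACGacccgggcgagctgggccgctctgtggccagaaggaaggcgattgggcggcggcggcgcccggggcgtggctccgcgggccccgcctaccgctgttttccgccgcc

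Of the 37 genes, 30 matched a RefSeq promoter. With windows of 300 bases and both strands searched, a heat shock element stood in 7 of the 30 genes (Cct2, Dnaja4, Dnajb6, Dnajc27, Fkbp4, Hspb6 and Hspb8) and in 9.04% of all 27025 genes with a promoter. The ER stress response element was found in Dnajc3 and in 0.137% of all genes. An NF-kB site was found in Hspa14, a ribosome-associated Hsp70, and in 1.89% of all genes. The motifs searched do not overlap one another in these windows, and a match is a string of letters, not a shown binding site. Cct4, Dnajc11, Dnajc30, Hspa13, Hspa9, Hspb2 and Hspd1-ps3 had no entry.

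Array medians ran from 4649 to 60399 intensity units before normalization, and 5713 probes had a value on all 10 arrays. Il1r1, the deleted receptor, read 13.96 and 14.17 in IL-1R1-/- glia with IL-1β and 13.86 and 14.06 in IL-1R1-/- glia with vehicle, against 14.29, 15.03 and 14.01 in wild-type glia with IL-1β and 13.80, 14.07 and 13.73 in wild-type glia with vehicle. The genotypes overlapped on this probe, whose position relative to the deleted part of the gene is not stated in the labels, so it does not check the labels. The responders listed as controls were chosen with earlier results of these data known, so they are no independent check of the labels. Their changes with IL-1β in IL-1R1-/- and wild-type glia were -0.01 and 3.16 for Ptx3, a soluble pattern recognition protein. They were 0.15 and 2.90 for Lcn2, an acute phase protein, and -0.46 and 2.51 for the chemokine Ccl12. Nfkbia, the NF-kB inhibitor, gave 0.07 and 1.79. All 4 rose in wild-type glia, with limma adjusted p at most 0.000312. Probes next to each other in file order changed alike, with r = 0.636 between neighbouring probes for the wild-type change over the tested probes, and the genes below are therefore also given after a smooth trend over that order was removed, which left r = 0.0509.

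With IL-1β against vehicle in wild-type glia, 0 of the 26 chaperone genes measured on all arrays had a limma adjusted p under 0.05, against 6.18% of all 5713 probes, and 2 of the 26 had an unadjusted p under 0.05, against 21.1% of all probes. The 26 changes lay between -0.56 for Hspb8 and 0.51 for Dnajc14, with 12 above 0 and 14 below. Their median was -0.06, against -0.04 over all tested probes. The 95% intervals of all 26 changes lay within 2-fold in either direction, with the outermost bounds at -0.94 for Hspb8 and 0.96 for Dnajc14. All 3 pairs were higher with IL-1β for 4 of the 26 genes, or 15.4%, against 19.3% of all probes, and lower for 3, or 11.5%, against 20.6%. The arrays with IL-1β stood above all those with vehicle for 0 of 26, against 8.1% of all probes. With the trend removed the pairs were all higher for 1 gene, or 3.85%, against 15.3% of all probes, and all lower for 5, or 19.2%, against 14.9%. In that fit 0 of 26 passed, against 0.473% of all probes, the smallest adjusted p was 0.133 for Pdia4, and 8 of the 26 estimates had the other sign. The unadjusted p was then under 0.05 for 3 of 26 genes, or 11.5%, against 288 probes higher and 349 lower of 5713.

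IL-1R1-/- glia gave no call among these genes either. With IL-1β against vehicle 0 of 26 genes passed, against 0% of all probes, and 4 of 26 had an unadjusted p under 0.05, against 7.6% of all probes: Dnajc14, Hspb7, Hspb8 and Hspd1-ps3. These estimates rest on 2 cultures, and 22 of the 26 intervals lay within 2-fold. The median change was -0.15, against 0.01 over all probes, and with the trend removed -0.03 against 0.00. Both pairs were lower with IL-1β for 15 of the 26 genes, or 57.7%, against 31.3% of all probes, and higher for 7 genes, or 26.9%, against 31.9%. Arrays with IL-1β and with vehicle did not overlap for 9 genes that were lower, or 34.6%, against 18.9% of all probes, and for 4 that were higher, or 15.4%, against 17.9%. After the trend was removed 0 of 26 passed, against 0% of all probes. The unadjusted p was then under 0.05 for 6 of 26 genes, or 23.1%, against 159 probes higher and 220 lower of 5713. The 6 were Fkbp3, Fkbp7, Hspb7, Hspb8, Hspd1-ps3 and Pdia4. Pairs lower in both cultures were then found for 11 genes, or 42.3%, against 28.4%, and pairs higher in both for 9 genes, or 34.6%, against 29.4%.

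Testing the genotypes against each other in their IL-1β change, 0 of 26 chaperone genes passed, against 0.158% of all probes, with and without the trend. An unadjusted p under 0.05 was found for 3 of 26 (Dnaja4, Hspb8 and Hspd1-ps3), against 14.1% of all probes. With the trend removed it was found for 5 of 26, or 19.2%, against 209 probes higher and 251 lower of 5713. The 5 were Fkbp7, Hspb7, Hspb8, Hspd1-ps3 and Pdia4. All pairs of one genotype went one way and all pairs of the other genotype the opposite way for 5 genes (Dnaja4, Dnajb11, Fkbp2, Hspb8 and Hspd1-ps3), or 19.2%, against 12.4% of all probes. After removal of the trend this held for 2 genes (Hspb8 and Pdia4), or 7.69%, against 7.91%.

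**Figure D1:**
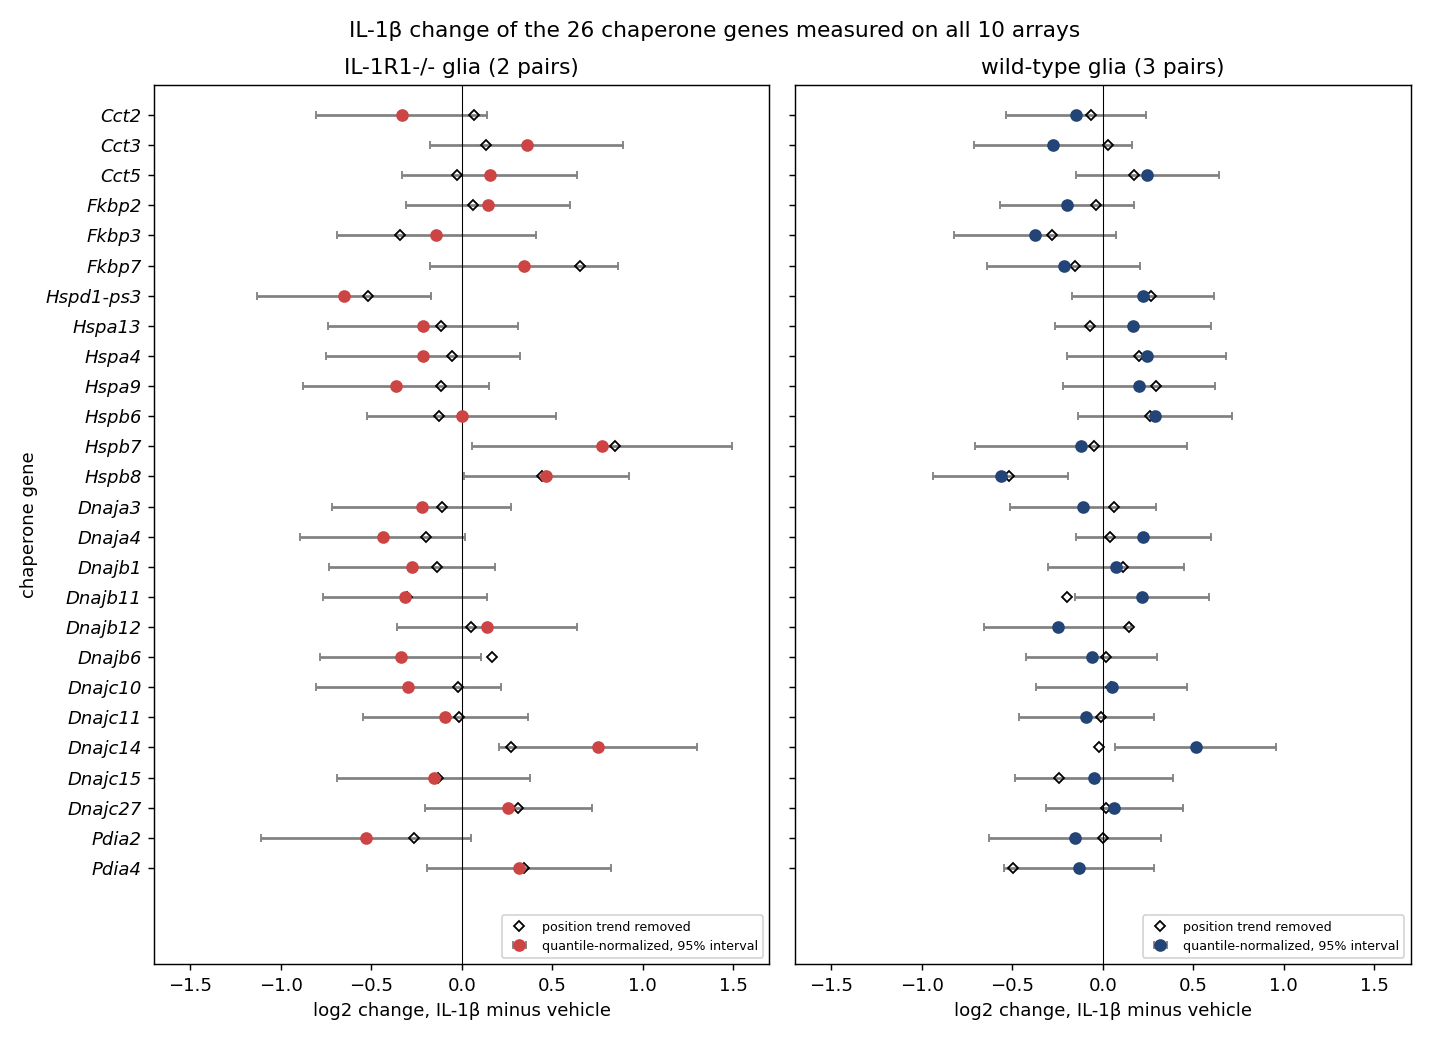
Log2 change with IL-1β minus vehicle for the 26 chaperone genes with a value on all arrays, in IL-1R1-/- glia (left, 2 pairs) and wild-type glia (right, 3 pairs). Filled points are limma estimates with 95% intervals and open diamonds the estimates after the position trend was removed; in wild-type glia all intervals lie between -0.94 and 0.96.

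Among the 26 genes measured on all arrays, the smallest wild-type p-value was that of a small heat shock protein. Hspb8, which works with the co-chaperone Bag3 to pass misfolded proteins to autophagy, read 15.79 and 16.20 in IL-1R1-/- glia with IL-1β against 15.30 and 15.75 with vehicle. In wild-type glia it read 15.83, 15.44 and 15.81 with IL-1β against 16.25, 15.87 and 16.64 with vehicle. Both IL-1R1-/- pairs were therefore higher with IL-1β, all 3 wild-type pairs were lower, and the treated and vehicle arrays did not overlap in either genotype. It was the sole chaperone gene lower without overlap in wild-type glia, 1 of 26 or 3.85%, against 7.39% of all probes.

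In wild-type glia Hspb8 averaged 15.69 ± 0.22 with IL-1β and 16.25 ± 0.39 with vehicle (SD, n = 3 each). The change was 0.47 ± 0.21 (SE) in IL-1R1-/- glia, with limma adjusted p = 0.642, and -0.56 ± 0.17 in wild-type glia, with adjusted p = 0.0722. The difference between them was 1.03 ± 0.27, with adjusted p = 0.162. These 3 values were 0.44, -0.52 and 0.96 with the trend removed, with adjusted p of 0.663, 0.164 and 0.246. With median centring in place of quantile normalization the IL-1R1-/- change was 0.07. The heat shock element printed above lies from base 3 of the Hspb8 transcript.

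Hspb7, a small heat shock protein known mainly from heart and skeletal muscle, read 19.51 and 18.12 in IL-1R1-/- glia with IL-1β against 18.31 and 17.76 with vehicle. Its wild-type arrays read 17.87, 17.69 and 18.69 with IL-1β against 18.14, 18.62 and 17.85 with vehicle. The pairs of IL-1R1-/- glia were both higher and those of wild-type glia were mixed, with overlap in both genotypes. The change was 0.78 ± 0.33 in IL-1R1-/- glia and -0.12 ± 0.27 in wild-type glia. The limma adjusted p-values were 0.62 and 0.835. With the trend removed the changes were 0.85 and -0.05, with adjusted p of 0.495 and 0.963. The mean of Hspb7 over the arrays, 18.26, was the highest of the 37 genes, and the identity of this spot was not tested. Hspb6, also called Hsp20, read 15.57 and 15.11 in IL-1R1-/- glia with IL-1β against 15.50 and 15.19 with vehicle. In wild-type glia it read 15.13, 13.99 and 15.85 with IL-1β against 15.24, 13.86 and 15.02 with vehicle, so the second culture stood more than a log2 unit below the others in both treatments. Its change there was 0.29 ± 0.20, with adjusted p = 0.443.

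**Figure D2:**
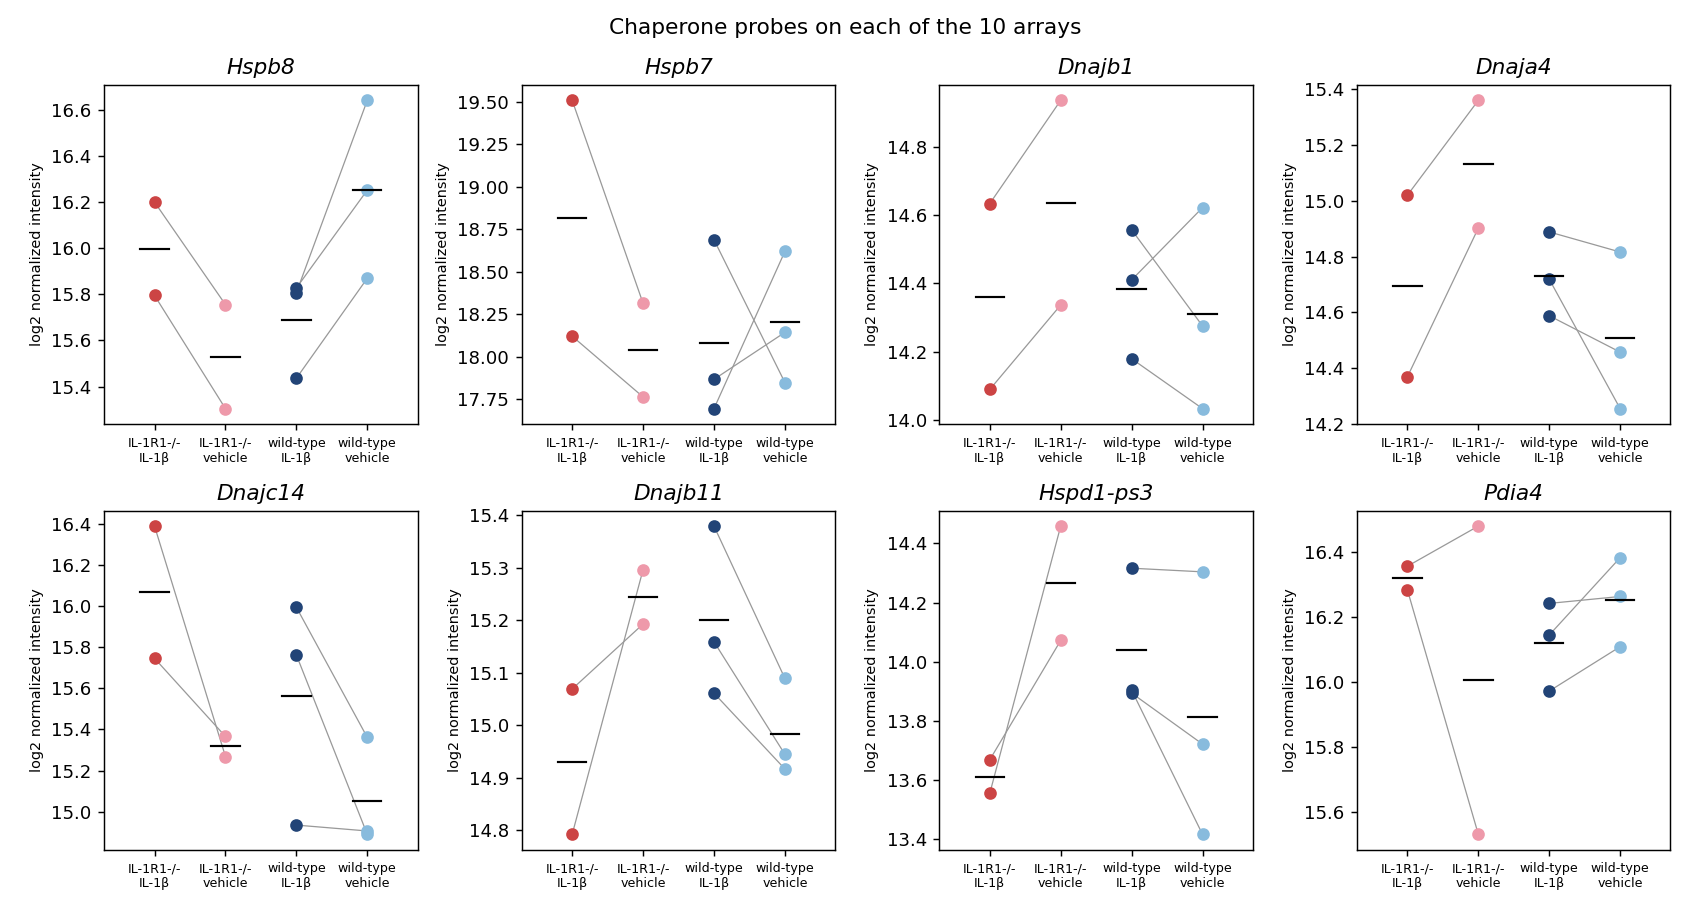
Log2 normalized intensity of 8 chaperone genes on each of the 10 arrays, with IL-1R1-/- groups left of wild-type groups and IL-1β left of vehicle; lines join the 2 arrays of a culture and bars are group means. Hspb8 slopes one way in both IL-1R1-/- pairs and the other way in the 3 wild-type pairs, and Dnajb1 shows no common slope in wild-type pairs.

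Among the J-domain genes of the cytosol measured on all arrays none passed. Dnajb1, the heat-inducible Hsp40 and main J-domain partner of cytosolic Hsp70, read 14.63 and 14.09 in IL-1R1-/- glia with IL-1β against 14.94 and 14.34 with vehicle, and 14.41, 14.18 and 14.56 in wild-type glia with IL-1β against 14.62, 14.03 and 14.28 with vehicle. The wild-type pairs disagreed in direction. Its change was -0.28 ± 0.21 in IL-1R1-/- glia and 0.07 ± 0.18 in wild-type glia, with limma adjusted p of 0.799 and 0.847 and a wild-type interval from -0.30 to 0.45.

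Dnaja4, a type A J-domain protein with 2 heat shock elements in the promoter printed above, read 14.37 and 15.02 in IL-1R1-/- glia with IL-1β against 14.90 and 15.36 with vehicle. Wild-type arrays read 14.72, 14.89 and 14.59 with IL-1β against 14.26, 14.82 and 14.46 with vehicle. Every IL-1R1-/- pair was lower and every wild-type pair higher with IL-1β. The changes were -0.44 and 0.22, and their difference was -0.66 ± 0.27 with limma unadjusted p = 0.031 and adjusted p = 0.305. A second Dnaja4 probe gave -0.30 and 0.29. With the trend removed the difference was -0.23 on the first probe and -0.45 on the second, with limma adjusted p of 0.832 and 0.576. The changes on the second probe were then -0.40 in IL-1R1-/- glia and 0.05 in wild-type glia. On the first probe they were -0.20 and 0.04. Dnajb6, which keeps polyglutamine proteins from aggregating, had estimates of -0.34 ± 0.21 and -0.06 ± 0.17 in IL-1R1-/- and wild-type glia, and the first of these was 0.17 with the trend removed.

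Among the J-domain genes of the ER and the mitochondria measured on all arrays none passed either. Dnajb11, an ER partner of the Hsp70 BiP, read 15.07 and 14.79 in IL-1R1-/- glia with IL-1β against 15.19 and 15.30 with vehicle, and 15.16, 15.38 and 15.06 in wild-type glia with IL-1β against 14.94, 15.09 and 14.92 with vehicle. Its pairs were lower in IL-1R1-/- glia and higher in wild-type glia, with changes of -0.31 and 0.22, but the wild-type estimate was -0.20 with the trend removed. Dnajc10, a disulfide reductase of the ER, gave -0.30 ± 0.24 and 0.05 ± 0.19, and Dnajb12, an ER membrane protein, gave 0.14 ± 0.23 and -0.25 ± 0.19. The mitochondrial proteins Dnaja3, Dnajc11 and Dnajc15 gave -0.22, -0.09 and -0.16 in IL-1R1-/- glia and -0.11, -0.09 and -0.05 in wild-type glia.

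Dnajc14, a membrane protein of the ER, had the highest estimate of the 26 in wild-type glia. It read 15.75 and 16.39 in IL-1R1-/- glia with IL-1β against 15.37 and 15.27 with vehicle, and 14.93, 15.99 and 15.76 in wild-type glia with IL-1β against 14.91, 15.36 and 14.89 with vehicle. All 5 pairs were higher with IL-1β, by 0.38 and 1.12 in IL-1R1-/- glia and by 0.03, 0.63 and 0.87 in wild-type glia. The changes were 0.75 ± 0.25 and 0.51 ± 0.21, with limma adjusted p of 0.601 and 0.173. They were 0.27 and -0.02 with the trend removed. Dnajc27, a small GTPase with a J domain, gave 0.26 ± 0.22 and 0.06 ± 0.18.

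The 3 Hsp70 genes measured on all arrays had estimates below 0 in IL-1R1-/- glia and above 0 in wild-type glia, and none passed. The 2 with a missing culture did not share this pattern: Hspa12b gave 0.41 and -1.23 in IL-1R1-/- and wild-type glia, and Hspa14 gave -0.50 and -0.10. Hspa9, the mitochondrial Hsp70 mortalin, read 14.05 and 14.04 in IL-1R1-/- glia with IL-1β against 14.47 and 14.34 with vehicle, and 14.65, 15.30 and 13.86 in wild-type glia with IL-1β against 14.12, 14.90 and 14.20 with vehicle. Its IL-1R1-/- arrays did not overlap, while the third wild-type pair went against the other two. The changes were -0.36 and 0.20 for Hspa9, -0.21 and 0.24 for Hspa4, an Hsp110-type nucleotide exchange factor, and -0.21 and 0.16 for Hspa13, an Hsp70-like protein of the microsomes. With the trend removed the wild-type value of Hspa13 was -0.07. A brighter Hspa4 probe, measured in 1 wild-type culture, went the other way, with pair changes of 0.68 and 0.42 in IL-1R1-/- glia and -0.98 in that wild-type culture.

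The Hsp60 spot is annotated to Hspd1-ps3, a pseudogene of the mitochondrial chaperonin Hspd1, and cDNA of Hspd1 itself could bind such a spot, so its values cannot be assigned to one of them. It read 13.56 and 13.67 in IL-1R1-/- glia with IL-1β against 14.46 and 14.07 with vehicle, and 13.90, 14.32 and 13.89 in wild-type glia with IL-1β against 13.42, 14.30 and 13.72 with vehicle. Both IL-1R1-/- pairs were lower without overlap, by 0.90 and 0.40 on the log2 scale, and the 3 wild-type pairs were higher by 0.49, 0.01 and 0.17. The genotype difference in the change was -0.88 ± 0.29, with limma unadjusted p = 0.00899 and adjusted p = 0.219, and it was -0.78 with adjusted p = 0.445 after the trend was removed.

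CCT subunits showed no common direction. Cct2, Cct3 and Cct5 gave -0.33, 0.36 and 0.15 in IL-1R1-/- glia, and -0.15, -0.28 and 0.25 in wild-type glia, with limma adjusted p of 0.767 or above in IL-1R1-/- glia and 0.481 or above in wild-type glia. Cct5 differed more between cultures than between treatments, at 14.19 with IL-1β and 14.34 with vehicle in the second wild-type culture and at 15.91 and 15.33 in the third.

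In the secretory pathway, Pdia4, a disulfide isomerase also called ERp72, read 16.28 and 16.36 in IL-1R1-/- glia with IL-1β against 15.53 and 16.48 with vehicle, and 15.97, 16.14 and 16.24 in wild-type glia with IL-1β against 16.11, 16.38 and 16.26 with vehicle. All 3 wild-type pairs were lower by small amounts, while the IL-1R1-/- pairs went opposite ways. The wild-type change was -0.13 with limma adjusted p = 0.741. With the trend removed it was -0.50 ± 0.13 with adjusted p = 0.133, and a second Pdia4 probe gave -0.47 before and -0.48 after the trend was removed. The genotype difference in the change was 0.45 before and 0.84 after the trend was removed, with adjusted p of 0.533 and 0.246, and the second probe gave 0.32 and 0.60. Pdia2, a disulfide isomerase best known from pancreas, gave -0.53 ± 0.27 in IL-1R1-/- glia, lower in both pairs, and -0.15 in wild-type glia, where the pairs disagreed. The adjusted p for IL-1R1-/- glia was 0.668.

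The 3 FK506-binding proteins measured on all arrays, prolyl isomerases, had a wild-type estimate below 0: -0.20 for Fkbp2 and -0.22 for Fkbp7, both ER proteins, and -0.38 ± 0.21 for Fkbp3, a nuclear one. None of the 3 passed. Fkbp3 read 14.54 and 14.58 in IL-1R1-/- glia with IL-1β against 14.66 and 14.73 with vehicle, and 15.06, 13.85 and 14.86 in wild-type glia with IL-1β against 15.73, 14.59 and 14.57 with vehicle. The third wild-type pair went against the other two. Leaving that culture out gave -0.72 with limma adjusted p = 0.0483, against an adjusted p of 0.33 with it. The share of all probes past the threshold without that culture is not given here. With the trend removed the Fkbp3 pairs were all lower, at -0.43 and -0.26 in IL-1R1-/- glia and -0.29, -0.39 and -0.16 in wild-type glia. The estimates from all cultures were then -0.34 and -0.28, with adjusted p of 0.718 and 0.41, and the genotype difference was -0.06. Fkbp7 gave 0.34 in IL-1R1-/- glia, where 1 pair was higher by 0.69 and the other was level, and 0.65 with adjusted p = 0.508 after the trend was removed.

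Among the 11 genes that lacked a culture were 2 that passed in wild-type glia. When probes with at least 2 values in each group were fitted, 8 of the 11 could be tested, and 2 of the 34 chaperone genes in that fit passed in wild-type glia, against 8.58% of all 7457 probes. In the other comparisons 0 passed, against 0% of probes for the IL-1β change in IL-1R1-/- glia, 0.523% for the genotype difference in that change, 0% for the genotypes with vehicle and 0.0268% for the genotypes with IL-1β.

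Dnajc1, an ER J-domain protein, read 13.91 and 13.67 in IL-1R1-/- glia with IL-1β against 13.78 and 13.78 with vehicle, and 13.82 and 14.42 in the first 2 wild-type cultures with IL-1β against 12.87 and 13.62 with vehicle. It rose in wild-type glia by 0.88 ± 0.22 (1.84-fold, n = 2 pairs, limma adjusted p = 0.0348), and in IL-1R1-/- glia its change was 0.01. The difference between genotypes was -0.87 ± 0.30 with adjusted p = 0.207. After the trend was removed, the wild-type change was 0.23 with adjusted p = 0.613.

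Fkbp9, a prolyl isomerase of the ER, read 14.73 and 15.15 in IL-1R1-/- glia with IL-1β against 14.98 and 15.21 with vehicle, and 15.32 and 14.49 in wild-type cultures 1 and 3 with IL-1β against 15.67 and 16.33 with vehicle. The third wild-type culture, with a drop of 1.84, carried most of the change. Fkbp9 fell by 1.09 ± 0.31 in wild-type glia (limma adjusted p = 0.0482), against a change of -0.16 in IL-1R1-/- glia, and the genotype difference was 0.94 with adjusted p = 0.323. With the trend removed the wild-type change was -0.69 with adjusted p = 0.157, and in the fit without the second wild-type culture, which has no value for this gene, its adjusted p was 0.0819.

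Hspa12b, an atypical Hsp70 known from endothelium, came near with -1.23 ± 0.39 in wild-type glia and limma adjusted p = 0.0684. The third wild-type culture again gave most of it, reading 14.35 with IL-1β and 16.67 with vehicle, whereas the first read 14.44 and 14.58. The remaining 5 tested genes (Dnajc13, an endosomal protein, Fkbp4, a co-chaperone of Hsp90, Hspa14, Hspb2 and Hspb11, a protein of intraflagellar transport) had wild-type changes between -0.10 and 0.36, with adjusted p of 0.345 or above.

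Cct4, Dnajc3 and Dnajc30 had 1 wild-type pair and no test. Dnajc3, the ER co-chaperone p58IPK with the ER stress element printed above, read 14.67 and 14.68 in IL-1R1-/- glia with IL-1β against 14.61 and 14.73 with vehicle, and 15.55 against 14.53 in the second wild-type culture. The wild-type difference of 1.03 was -0.04 with the trend removed. Cct4 read 15.44 with IL-1β against 16.89 with vehicle in the third wild-type culture, a difference of -1.44 that was -0.71 with the trend removed. Dnajc30, a mitochondrial J-domain protein, read 16.81 against 15.60 in the second, a difference of 1.21 that was 0.54 with the trend removed.

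**Figure D3:**
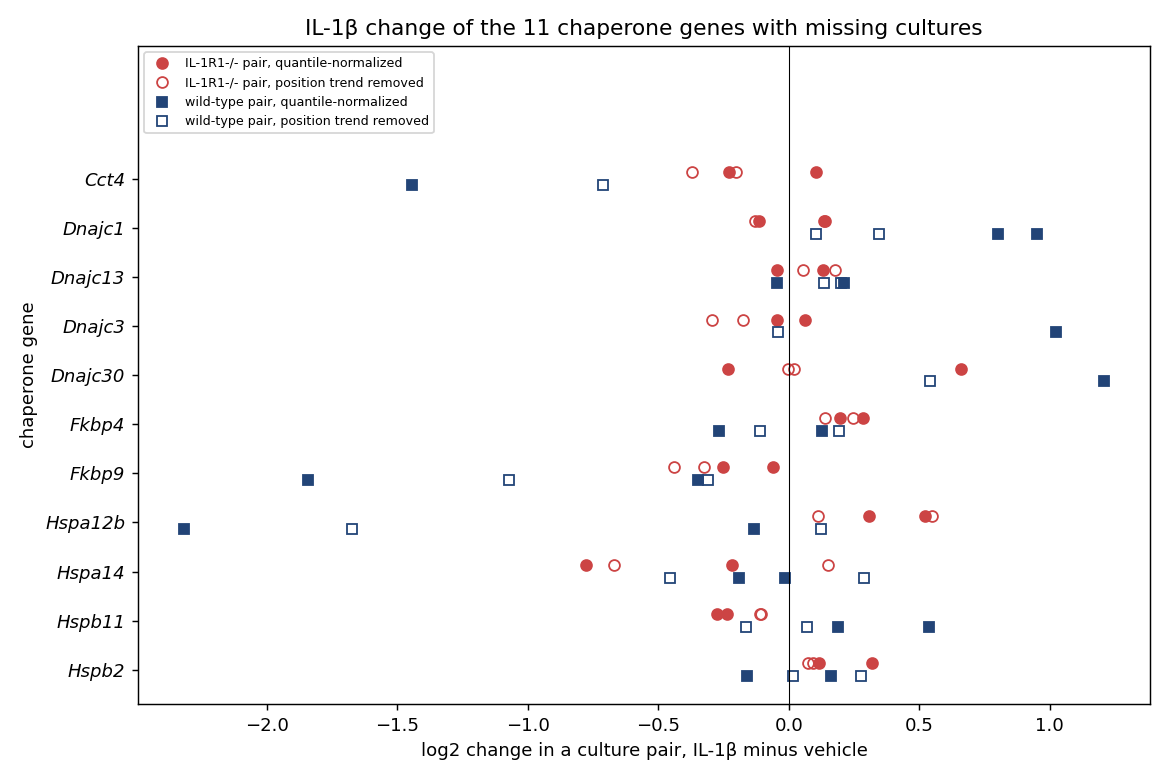
Log2 change with IL-1β minus vehicle in each culture pair for the 11 chaperone genes that lacked a culture, IL-1R1-/- pairs as circles and wild-type pairs as squares, filled before and open after the position trend was removed. The wild-type squares of Dnajc1, Dnajc3 and Cct4 move toward 0 when the trend is removed.

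The genotypes were then compared within each treatment. With vehicle, 0 of 26 chaperone genes passed, against 0.0175% of all probes (0% with the trend removed), and 2 of 26 had an unadjusted p under 0.05, against 8.56% of all probes. These were Hspb8, at -0.72 ± 0.26 in IL-1R1-/- minus wild-type glia with limma adjusted p = 0.384, and Dnaja4, at 0.62 ± 0.25 with adjusted p = 0.505. The vehicle arrays of both genes, given above, did not overlap between genotypes. Counting these, 3 of the 26 genes, or 11.5%, were higher in IL-1R1-/- glia without overlap and 2, or 7.69%, were lower. The share of all probes without overlap is not given here, so the lack of overlap is not read as a result about these genes. A second Dnaja4 probe gave 0.65. Once the trend was removed the first gave 0.37 and the second 0.28, with limma unadjusted p of 0.0866 and 0.118. The genes with an unadjusted p under 0.05 were then Pdia4, at -0.80 against -0.25 before, Hspb8, at -0.70, and Dnajb6, at -0.40, with adjusted p of 0.268, 0.579 and 0.61.

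With IL-1β, 0 of 26 passed, against 0.07% of all probes (0.105% with the trend removed), and 1 of 26 had an unadjusted p under 0.05, against 4.97% of all probes. It was Dnajb6, which read 13.55 and 13.63 in IL-1R1-/- glia against 14.18, 14.23 and 13.84 in wild-type glia. The groups did not overlap. This held with IL-1β for 4 of 26 genes lower in IL-1R1-/- glia, or 15.4%, and for 1 higher, or 3.85%. It is likewise not read as a result. The difference for Dnajb6 was -0.50 ± 0.22 with limma adjusted p = 0.953. With the trend removed it was -0.25 with unadjusted p = 0.163, and the sole gene with an unadjusted p under 0.05 was Dnajc14, at 0.47 with adjusted p = 0.814. The intervals of 16 genes with vehicle and 19 with IL-1β lay within 2-fold, and those of the other genes reached beyond it.

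**Figure D4:**
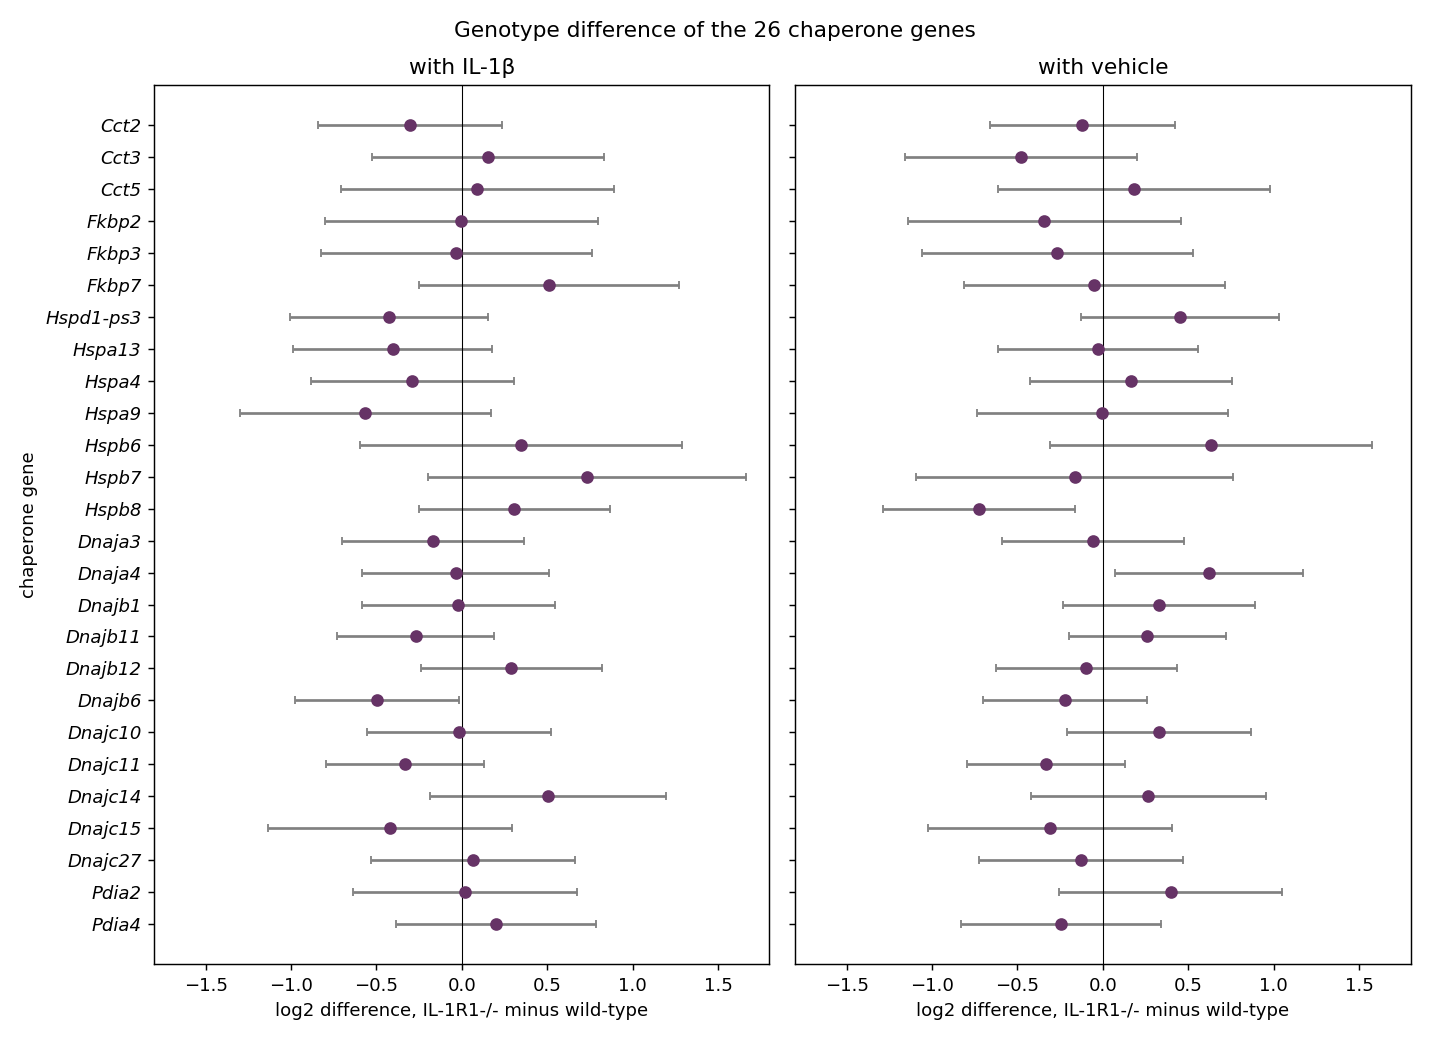
Log2 difference of IL-1R1-/- minus wild-type glia for the 26 chaperone genes, with IL-1β (left) and with vehicle (right); points are limma estimates and bars 95% intervals. With vehicle the intervals of Hspb8 and Dnaja4 lie off 0, and with IL-1β that of Dnajb6.

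Levels also differed between cultures. The range of the means of all 5 cultures, which spans both genotypes, was above the largest change within a pair for 13 of the 26 genes, or 50%, against 44.4% of all probes. The median range was 0.68 for the chaperone genes and 0.56 for all probes. It was widest for Hspb6, at 1.61 between the second wild-type culture and the first IL-1R1-/- culture, followed by Cct5 at 1.35.

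The 6 tested genes with a heat shock element in the promoter window had a median of -0.17 in IL-1R1-/- glia and 0.00 in wild-type glia, with a wild-type range from -0.56 to 0.29. The 16 tested genes without one had medians of 0.00 and -0.12, with a wild-type range from -0.38 to 0.51. No test was made between these sets.

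Partners of the chaperones outside the symbol rule were described with lists chosen with earlier results known. Of 35 co-chaperones and related genes 6 were tested. In wild-type glia 1 of the 6 passed, against 6.18% of all probes: Bag2, a nucleotide exchange factor of Hsp70, which fell. It read 14.58 and 14.85 in IL-1R1-/- glia with IL-1β against 14.37 and 14.42 with vehicle, and 14.31, 13.77 and 14.02 in wild-type glia with IL-1β against 14.99, 14.61 and 14.72 with vehicle. Every wild-type pair was lower without overlap, by 0.74 ± 0.17 with limma adjusted p = 0.0291, but the change was -0.19 with adjusted p = 0.615 once the trend was removed. Cryab, a small heat shock protein made by astrocytes, gave 0.27 ± 0.29 in IL-1R1-/- glia and -0.57 ± 0.24 in wild-type glia, with adjusted p of 0.856 and 0.188. The list had a median of -0.14 in wild-type glia.

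Of 33 genes of ER folding and the unfolded protein response 13 were tested and 0 passed in any of the 5 comparisons. Over all probes 6.18% passed for the wild-type change and at most 0.158% in the other comparisons. In wild-type glia 5 were above and 8 below 0, with a median of -0.14 and a range from -0.51 to 0.20. The smallest p-value there was that of Prkcsh, the β subunit of glucosidase II, at -0.48 ± 0.18 with limma adjusted p = 0.14. Calr, the lectin chaperone calreticulin, gave 0.14 and 0.05 in IL-1R1-/- and wild-type glia.

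Of 12 astrocyte markers 4 were tested, and Id4, a transcriptional regulator, and Glul, glutamine synthetase, fell by 1.60 and 0.84 with IL-1β in wild-type glia, with limma adjusted p of 0.0008 and 0.0291. Glul had an adjusted p of 0.112 with the trend removed. The other tested markers, Sox9 and Slc1a2, changed by -0.20 and 0.10, with limma adjusted p of 0.614 and 0.825. With the trend removed they changed by -0.62 and 0.13, with adjusted p of 0.0776 and 0.852. Over all probes 6.18% passed in wild-type glia before the trend was removed. The summed level adds linear intensities, so Glul, the brightest of the 4 on average, weighs most in it. The summed astrocyte level was 16.68 to 17.30 with IL-1β and 16.87 to 17.33 with vehicle in IL-1R1-/- glia, and 16.64 to 16.82 with IL-1β and 17.50 to 17.59 with vehicle in wild-type glia. Of 15 microglial markers 5 were tested, of 12 oligodendrocyte markers 3, of 10 neuronal markers 2 and of 8 fibroblast markers 1, and 0 passed in wild-type glia. Of 8 endothelial markers 4 were tested and Emcn rose by 0.84 in wild-type glia with adjusted p = 0.0187, or 0.22 with adjusted p = 0.555 after the trend was removed. The part of these markers in the chaperone values was not tested, and in such bulk samples fewer cells of a type and less RNA per cell cannot be told apart.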

How the data were processed

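The labels describe TRIzol extraction, DNase treatment and reverse transcription with a radiolabelled nucleotide. What the authors deposited are spot intensities on a linear scale, and the labels name no software, background correction or normalization for them. Of 8734 probes 7153 had 1 gene symbol, 387 several and 1194 none. Deposited intensities were turned into log2 values and quantile-normalized with limma 3.58.1 (R 4.3.3). Each gene took its probe with values on all 10 arrays and the highest mean; for 2 of 37 genes, Dnajb12 and Hspa4, a brighter probe with missing cultures exists. Changes with IL-1β came from limma (lmFit, eBayes) in a model holding each culture as a fixed block plus the treatment effect of each genotype. Genotypes within a treatment were compared between the means of the 4 groups, culture entering as a random effect (duplicateCorrelation, statmod 1.5.0, correlation 0.388). Two-sided p-values were Benjamini-Hochberg adjusted across the 5713 probes fitted, and 0.05 was the threshold. Errors are SE of the fit or SD between arrays. The number of arrays limits precision. Nothing given says whether cultures came from separate animals, although the design text calls the replicates independent.

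The design text states paired treatments. Over probes, both arrays of a culture deviated together from their groups, at r = 0.562 in IL-1R1-/- cultures and 0.468, 0.582 and 0.261 in the wild-type cultures. With 2 IL-1R1-/- cultures the deviations of one mirror those of the other, so 0.562 is 1 value for both. These values still held the position trend, and its part in r was not tested. The 2 columns of the third IL-1R1-/- culture were left out. Each held 1 constant ratio to another column, within a log2 tolerance of 0.0001. The vehicle column of that culture matched the first wild-type vehicle column at 99.62% of shared probes. Its IL-1β column matched the first IL-1R1-/- vehicle column at 99.2%. The 2 matched columns were kept and are called sources below. A constant ratio does not show which column is the copy, so it does not secure the labels of the sources.

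The position trend was removed by a loess fit (span 0.2) over file order read as plates of 16 by 24 wells; this layout was inferred from the values. Only the fit of the wild-type IL-1β change was tested on simulated data, which held no position trend. Genes named are, per comparison and direction, those past the threshold or the 4 with the smallest p, plus a fixed set of 26 well-known names, of which 10 were measured. The others named were chosen after their values were seen. Members, lists and the trend removal were chosen with earlier results of these data known. Alternatives were other normalizations, probe filters, column sets, the block and left-out cultures.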

Additional observations from a re-analysis of the deposited data

How the results depend on the processing

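The count of chaperone genes past the threshold was 0 in each of the 5 comparisons, and 68 of 70 pairs of a comparison and an alternative gave 0 too. The other 2 concern IL-1β against vehicle in wild-type glia: 2 genes passed when probes with gaps were kept (Dnajc1 and Fkbp9), and leaving out each culture in turn gave 0 to 2, with 2 (Dnajc1 and Fkbp3) without the third wild-type culture. In the other 4 comparisons leaving out cultures gave 0 to 0. Among the named genes of the 10-array fit, Fkbp3 alone passed a threshold it had missed, at -0.718 without that culture. The share of all probes past the threshold in the fit without that culture is not given here. Its 2 calls are therefore not read as a result about the chaperone genes. The fit with no replicate block, which ignores the pairing, called 0 chaperone genes in every comparison, with a smallest adjusted p of 0.382 for Hspb8 in wild-type glia, and 14 of 5713 probes there, against 353 with the block. Over the 13 alternatives with a value for it, the wild-type change of Hspb8 lay between -0.604 and -0.483, and its IL-1R1-/- change between 0.0713 and 0.492. Of 21 named genes 6 had the other sign in wild-type glia and 3 in IL-1R1-/- glia once the position trend was removed. Fitting all 12 columns called 0 of 20 tested members. Probes past the threshold in wild-type glia were 353, against 412 without normalization, 396 with median centring, 27 with the trend removed and 71 without the copied columns and their sources. With median centring, 177 probes passed in IL-1R1-/- glia, against 0 with quantile normalization, 264 against 9 for the genotype difference in the change, and 102 against 1 with vehicle. The 2 IL-1R1-/- cultures limit what that genotype can show.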
